A study of Mus musculus with 2 samples.

Results

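Post-mitotic neuroblasts were taken from the CD45-negative library as barcodes with at least 1000 UMIs (unique molecular identifiers, each standing for a captured transcript) and at most 20% mitochondrial UMIs that met 3 conditions. They held a UMI of at least 4 of the 8 genes Dcx, Stmn2, Dlx6os1, Sp9, Dlx1, Islr2, Igfbpl1 and Sox11, no UMI of the proliferation genes Top2a and Mki67, and fewer than 30 UMIs per 10000 of the astrocyte genes Slc1a2 and Aqp4 together. This gave 1038 of 12881 kept barcodes, or 8.06% (95% Clopper-Pearson interval 7.59 to 8.54; like every interval here, it covers counting error only). The study profiled brain cells of C57BL mice aged 8 to 13 weeks, 24 h into a model of neuromyelitis optica (NMO), in which antibodies bind the astrocyte water channel aquaporin-4. Cells were divided by CD45, a surface protein of leukocytes, and each subset gave 1 library. The number of mice behind each library was not given and no untreated library was analysed here. With 1 library per subset no difference below has a replicate check, and no test was made.

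Neuroblasts are young neurons that arise from stem cells of the ventricular-subventricular zone and of the hippocampal dentate gyrus in the adult brain. Those of the subventricular zone migrate in chains along the rostral migratory stream to the olfactory bulb and become mostly GABAergic interneurons, under homeodomain factors of the Dlx family and the zinc-finger factors Sp8 and Sp9. Those of the dentate gyrus become glutamatergic granule neurons by way of the T-box factor Eomes and the basic helix-loop-helix factor Neurod1.

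Sequences before the transcription start are shown for 4 genes on which the results turn. Adarb2 and Prokr2 were among the genes with the highest ratios over other cells, Dlx2 is a regulator of the GABAergic lineage, and Eomes marks the small glutamatergic set described at the end. Each window holds the 250 bases before the start in RefSeq (GRCm38.p6), is written 5′ to 3′ on the gene's strand, and overlaps no exon annotated in GENCODE M21. Capitals mark TAATTA (the core bound by many homeodomain proteins), CAGCTG (an E-box) and GGGCGG (a GC box), each searched on both strands.
Adarb2, chr13:8202616-8202865, plus strand: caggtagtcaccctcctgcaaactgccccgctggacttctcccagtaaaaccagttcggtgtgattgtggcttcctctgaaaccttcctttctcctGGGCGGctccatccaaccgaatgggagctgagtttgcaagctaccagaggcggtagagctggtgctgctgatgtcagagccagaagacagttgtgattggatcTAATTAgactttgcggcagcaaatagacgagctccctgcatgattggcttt
Dlx2, chr2:71546755-71547004, minus strand: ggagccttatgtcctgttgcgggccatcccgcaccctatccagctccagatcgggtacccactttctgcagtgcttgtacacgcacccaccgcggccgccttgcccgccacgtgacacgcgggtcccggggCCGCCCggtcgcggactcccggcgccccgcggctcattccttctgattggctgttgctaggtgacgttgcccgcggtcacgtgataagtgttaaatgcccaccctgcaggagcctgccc
Prokr2, chr2:132385448-132385697, minus strand: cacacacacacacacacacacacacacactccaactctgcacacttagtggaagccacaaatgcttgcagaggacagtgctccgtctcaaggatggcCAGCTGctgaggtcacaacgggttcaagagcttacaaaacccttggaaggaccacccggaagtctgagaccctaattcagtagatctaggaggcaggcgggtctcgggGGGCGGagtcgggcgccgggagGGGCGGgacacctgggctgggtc
Eomes, chr9:118477939-118478188, plus strand: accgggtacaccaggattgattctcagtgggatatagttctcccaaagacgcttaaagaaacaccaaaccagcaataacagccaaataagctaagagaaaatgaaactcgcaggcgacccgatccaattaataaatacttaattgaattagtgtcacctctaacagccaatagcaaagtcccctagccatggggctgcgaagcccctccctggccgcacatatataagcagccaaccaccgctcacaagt
TAATTA occurred in 4.84%, CAGCTG in 13.0% and GGGCGG in 32.7% of 32851 such windows of 27025 genes. Of the 15 genes with the highest ratios over other cells, 8 had windows, 10 in all. Among those 10 windows TAATTA occurred in 2 (Adarb2 and Sp8), CAGCTG in 2 and GGGCGG in 6. A match describes the letters of a window and is no evidence of binding.

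Most members met the rule by a wide margin. All 8 rule genes were found in 639 members (61.6%), 7 in 241, 6 in 64, 5 in 55 and 4 in 39, and 59 further barcodes stood just outside with 3. Slc1a2 and Aqp4 together had a median of 1.73 UMIs per 10000 in members, with 14 members at 25 to 30 and 7 barcodes just outside at 30 to 35. Summed over members and divided by all UMIs of the same cells (given as CPM, on a common scale for all classes), Dcx, which encodes the microtubule protein doublecortin, stood at 966, Stmn2 at 1847, Dlx6os1 at 1237, Sp9 at 464 and Sox11 at 2618. In the 11553 kept barcodes with fewer than 4 rule genes, called other cells below, the same genes were at 5.78, 17.4, 3.87, 2.10 and 41.9 CPM. All 5 markers of the label were thus present, as the rule required, and these levels describe the selection. Per cell, Dcx had a median of 9.60 UMIs per 10000 with a lower quartile of 5.87, and Sox11 a median of 25.1. In the CD45-positive library 3 of 7768 kept barcodes met the rule (0.0386%, 0.00797 to 0.113).

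**Figure D1:**
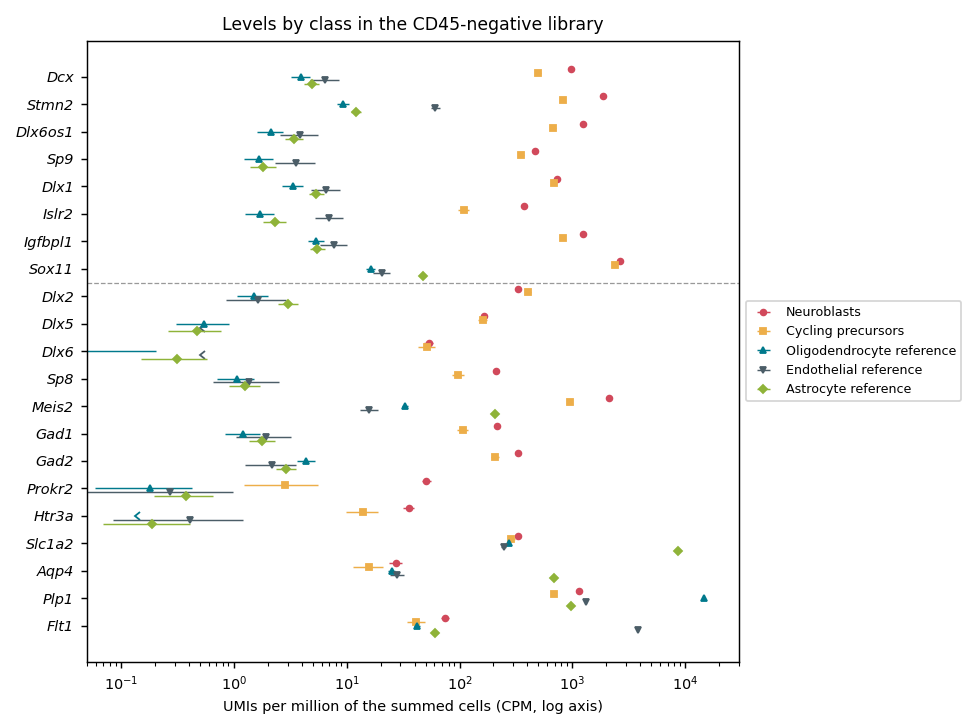
Levels in CPM (log axis) of the 8 rule genes, above the dashed line, and of further genes below it, in neuroblasts and 4 other classes of the CD45-negative library. Points are sums over the cells of a class, bars are exact 95% Poisson intervals and open arrowheads mark the upper limit where a class had 0 UMIs. Neuroblasts and cycling precursors lie to the right of the reference classes for the neuronal genes, as for Dlx5 at 166 and 161 CPM.

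The CD45-negative library held 92691820 UMIs, and members had a median of 7435.5 UMIs and 2840.5 genes. The libraries shared 27 barcodes, none of them a member. Scrublet called 99 members (9.54%) doublets, against 5.54% of all CD45-negative barcodes, and 82 members held at least 4 of 6 oligodendrocyte or at least 4 of 6 endothelial genes. Summed levels of the 9 marker lists of non-neuronal cell types lay between 6.27% and 32.5% of those in other cells, and Cd3d, Cd8a, Gzma and Ms4a1, which mark T, cytotoxic and B cells, were at 0. Reference cells were other cells with at least 4 of 6 oligodendrocyte or endothelial genes, or at or over the limit for Slc1a2 and Aqp4 (astrocytes). The 12 astrocyte markers that the rule did not use summed to 927 CPM in neuroblasts and 7385 CPM in other cells. The limit on Slc1a2 and Aqp4 kept astrocytes out of the members but not out of other cells, so this contrast follows from the selection. All 14 astrocyte markers together stood at 11.4% of other cells in neuroblasts. The oligodendrocyte and endothelial references, under the same limit, were at 11.1% and 11.6%. For the choroid and ependymal list, 10 members carried 87.0% of the UMIs. After each cell was thinned to 1000 UMIs, Slc1a2 was seen in 23.5% of neuroblasts, 20.3% of oligodendrocyte and 17.0% of endothelial reference cells, whose median depths before thinning were 9777 and 5041 UMIs. Dcx was seen in 61.5% of neuroblasts and in 0.531% and 0.830% of the references, a contrast that the rule fixed. The part of free RNA and of doublets in the results below was not tested unless a value without the doublet calls is given.

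Outside the rule, the genes with the highest ratios of neuroblasts to other cells included those of the olfactory bulb interneuron lineage. Dlx5, a homeodomain factor on chromosome 6 (6877805 to 6882085, GRCm38), was at 166 CPM in neuroblasts against 0.556 in other cells, a 298-fold ratio (221 to 412). Adarb2 (chromosome 13, 8202866 to 8768747), a brain-restricted member of the RNA-editing enzyme family that lacks known editing activity, was at 214 against 1.11 CPM, or 192-fold (155 to 241). Its expression marks interneurons of the caudal ganglionic eminence lineage. The serotonin-gated channel gene Htr3a was at 35.5 against 0.139 CPM, or 255-fold (140.5 to 517). Nxph1, which encodes a neurexin ligand, was at 76.1 against 0.354 CPM, and Sln, which encodes the calcium pump inhibitor sarcolipin, at 29.2 against 0.114 CPM. Srrm4, a splicing factor of neural microexons, was at 203 against 1.66 CPM. Sp8 was at 213 against 1.40 CPM. These genes were chosen by their ratio, and their values describe it. The rule itself counted Dlx6os1, Sp9 and Dlx1, which belong to the GABAergic lineage, so the selection favoured other genes of that lineage.

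Of 24 transcription factors of the GABAergic lineage, 18 were at least 2-fold higher than in other cells and 1 lower, with a median log2 ratio of 3.09. Over all 17293 genes compared, 15% were at least 2-fold higher and 33.2% lower, with a median of -0.24. The count does not set the GABAergic list apart, since of 12 factors of the glutamatergic lineage 9 were higher and 0 lower, with a median of 3.04. Dlx2 was at 327 CPM in neuroblasts, 407 in the 209 cycling precursors (barcodes that met the rule but for UMIs of Top2a or Mki67) and 2.92 in other cells. Dlx2 and Dlx5 thus lay within 2-fold of the cycling precursors. Dlx6 was at 53.4, 51.2 and 0.278 CPM in the same order. Its gene lies within Dlx6os1 on the opposite strand, and the use of strand in counting was not given, so reads of that pair cannot be told apart. Meis2, a cofactor of Dlx proteins in olfactory interneurons, was at 2126, 949 and 108 CPM. Nr2f2 was the member of the list below other cells, at 32.7 against 83.8 CPM. Sox4 and Nfib, factors shared by young neurons of several lineages, were at 2178 and 1854 CPM against 80.2 and 308. Rest, a repressor of neuronal genes in other cell types, was at 6.73 against 43.5 CPM, and at 3.75 CPM without the doublet calls.

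**Figure D2:**
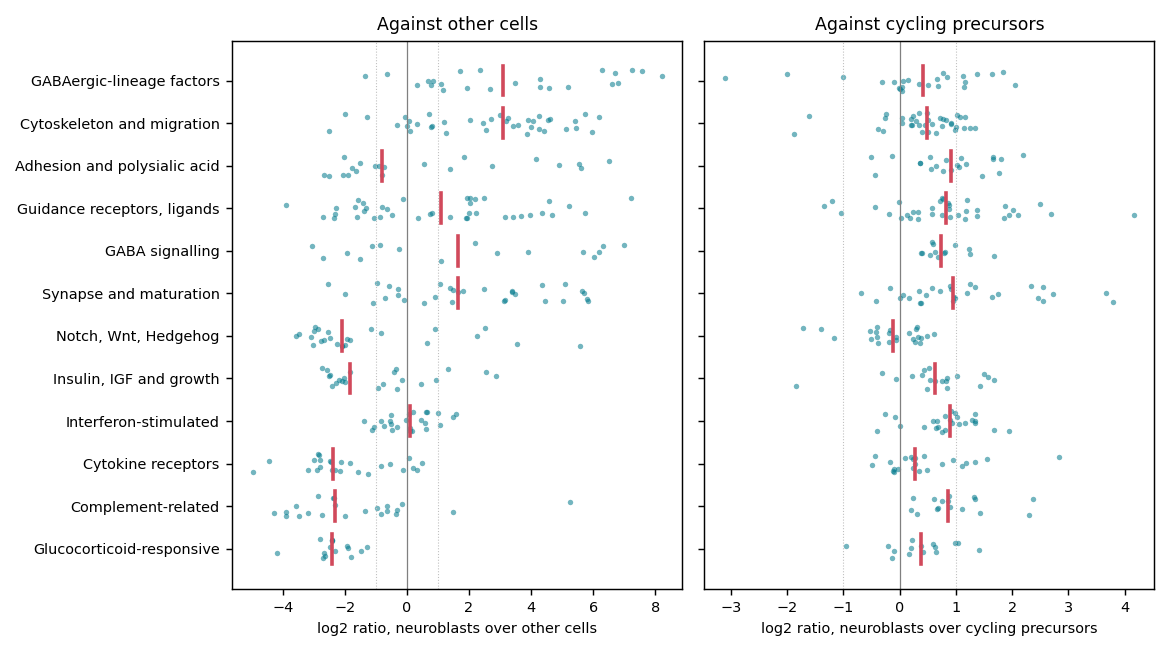
Log2 ratio of neuroblasts to other cells and to cycling precursors for the genes of each list. Each dot is a gene, red bars are list medians, dotted lines mark 2-fold, and genes with 0 UMIs in either sum are not drawn. The lineage factors and the cytoskeleton list sit to the right in the comparison with other cells, with medians of 3.09 and 3.08, and the cytokine receptor and glucocorticoid-responsive lists to the left, at -2.37 and -2.43.

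Genes of the moving cell body and growth cone were high against other cells. Of 38 cytoskeleton and migration genes, 26 were at least 2-fold higher and 3 lower than in other cells, with a median log2 ratio of 3.08. Of all genes, 15% were higher than in other cells and 33.2% lower. Against cycling precursors, 27 of 36 lay within 2-fold, 7 were higher and 2 lower, with a median of 0.49. Over all genes 9.34% were higher there and 6.1% lower. The values below are again against other cells. Tuba1a, the alpha-tubulin of young neurons, was at 6136 against 569 CPM, and Crmp1, a mediator of semaphorin signals, at 422 against 5.85 CPM. Nrep, a small protein of regenerating and young neurons, was at 534 against 8.66 CPM. Nde1, a dynein regulator needed in dividing progenitors, was at 10.2 against 58.4 CPM, and at 6.20 CPM without the doublet calls. St8sia2, which adds polysialic acid to the adhesion molecule NCAM, was at 85.0 against 0.923 CPM, and its substrate Ncam1 at 1059 against 298 CPM. Among 21 adhesion genes, 8 were higher and 9 lower, and the integrin Itga6 was at 21.9 against 124 CPM, and at 10.4 CPM without the doublet calls.

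Of 40 guidance receptors and ligands, 20 were at least 2-fold higher than in other cells and 12 lower, the latter share near the 33.2% of all genes. Prokr2, the receptor for the olfactory bulb chemoattractant prokineticin 2, was at 51.0 CPM in neuroblasts, 2.84 in cycling precursors and 0.341 in other cells. It was 17.9-fold above cycling precursors (9.01 to 41.8), the third in rank by the lower bound of the interval, after Slpi and Ttr, of whose UMIs 10 or fewer members held 100% and 89.3%. After thinning, Prokr2 was seen in 5.88% of neuroblasts and 0.0759% of oligodendrocyte reference cells. Robo2, a Slit receptor, was at 316, 86.0 and 8.39 CPM in neuroblasts, cycling precursors and other cells, and the ligand gene Slit1 at 41.2, 27.7 and 0.771 CPM. Plxna4, a semaphorin coreceptor, was at 181, 32.0 and 7.08 CPM. Robo2 and Plxna4 were thus higher in neuroblasts than in cycling precursors, as were 14 of 36 genes of the list, with 3 lower, where 9.34% of the 12980 genes compared were higher and 6.1% lower. Gfra1, a GDNF coreceptor, was at 5.29 against 25.9 CPM in other cells.

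The enzymes of GABA synthesis were present with the vesicular transporter. Gad1 was at 213 against 2.95 CPM, or 72.3-fold (63.1 to 83.3), Gad2 at 327 against 4.07 CPM and Slc32a1 at 59.9 against 0.468 CPM. Gad2 was seen in 28.5% of thinned neuroblasts, and in 0.380% of oligodendrocyte and 0.377% of endothelial reference cells. The chloride importer Slc12a2 was lower, at 79.6 against 303 CPM (46.8 without the doublet calls). Of 16 GABA signalling genes, 9 were higher and 5 lower, where 15% of all genes were higher and 33.2% lower. The lower share was thus near that of all genes. Of 31 genes of synapses and maturation, 20 were higher and 3 lower than in other cells, and Celf4, an RNA-binding protein of neurons, was at 655 against 11.5 CPM.

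Against cycling precursors the cell cycle genes were low. The rule left out cells with Top2a or Mki67, so this describes the selection. All 25 G1/S genes and all 25 G2/M genes were at least 2-fold lower, with medians of -2.68 and -6.01. Aurkb, a mitotic kinase, had 2 UMIs in neuroblasts (0.240 CPM) and was at 87.5 CPM in cycling precursors. Ccnb1, a mitotic cyclin, was at 0.481 against 96.0 CPM. Of the 25 G1/S genes, 17 were at least 2-fold above other cells and 0 below, where 15% of all genes were above and 33.2% below. Cycling precursors were deeper, with a median of 11820 UMIs against 7435.5 in neuroblasts. Any UMI of Top2a or Mki67 set the class, so cycling cells of low depth could be counted as members. Their number was not tested. Mcm7, a replicative helicase subunit, was at 83.3 CPM in neuroblasts, 239 in cycling precursors and 17.9 in other cells. Ccnd2, the cyclin D of neural progenitors, was at 2841, 4368 and 103 CPM. After thinning, 20.8% of neuroblasts (18.4 to 23.4) held UMIs of at least 2 cell cycle genes, against 80.9% of cycling precursors (74.9 to 86.0), 4.82% of oligodendrocyte and 9.05% of endothelial reference cells. For G1/S genes alone the share was 11.8% in neuroblasts and 2.88% and 4.15% in those references, and for G2/M genes 3.47%, 0.417% and 1.81%. Without thinning the cell cycle share was 85.4%.

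**Figure D3:**
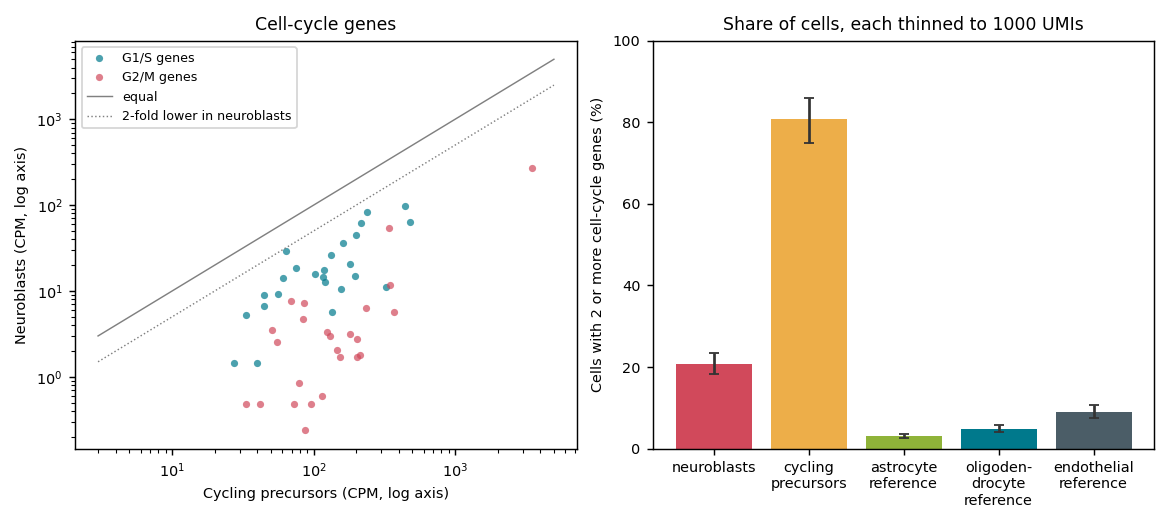
Cell cycle genes by class: CPM of each G1/S and G2/M gene in neuroblasts against cycling precursors (log axes), and the share of cells with at least 2 such genes after thinning to 1000 UMIs, with Clopper-Pearson intervals. The share was 20.8% in neuroblasts and 80.9% in cycling precursors.

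Some genes of later neuronal stages were at least 2-fold higher in neuroblasts than in cycling precursors, where 9.34% of all genes were. Of 13 glutamate signalling genes, 9 were at least 2-fold higher and 1 lower, and of 29 synapse and maturation genes, 12 were higher and 0 lower. Marker lists of other cell types lay above cycling precursors too, with 6 of 9 microglia and myeloid genes higher (median 1.57), 3 of 7 choroid and ependymal genes (0.97), 2 of 12 oligodendrocyte genes (0.79) and 2 of 12 endothelial genes (0.72), and 0 lower in each. Their part in the differences from cycling precursors was not tested. Scn3a, the embryonic-type voltage-gated sodium channel, was at 34.3 against 2.49 CPM, or 13.8-fold (6.60 to 34.6). Grik3, a kainate receptor subunit, was at 33.8 against 5.33 CPM, and the AMPA receptor subunit gene Gria2 at 745 against 342 CPM. The imprinted noncoding RNA Meg3 was at 1330.1 against 242 CPM. Of 10 olfactory bulb interneuron genes compared, 8 were higher and 0 lower, with Nxph1 at 76.1 against 16.4 CPM and Synpr, a synaptic vesicle protein, at 101 against 29.5 CPM. Insm1, a factor of newly committed neuronal precursors, went the other way at 91.1 against 280.5 CPM, and Dll3, a Notch ligand of the same stage, stood at 12.6 against 41.2 CPM.

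Interferon-stimulated genes were carried by neuroblasts at levels that varied widely between cells, as they did in the other classes. Of 25 genes in the list, 4 were at least 2-fold above other cells and 3 below (median 0.09). Of all genes, 15% were above other cells, near the share of the list, and 33.2% below. Against cycling precursors 9 of the 25 were above and 0 below (median 0.90). Over all genes 9.34% were above cycling precursors, and the marker lists of oligodendrocytes, endothelium and microglia had medians of 0.79, 0.72 and 1.57 in the same comparison. Oasl2, an antiviral 2'-5' oligoadenylate synthetase-like protein, was at 177 CPM in neuroblasts, 72.9 in cycling precursors and 59.8 in other cells, and at 185 CPM without the doublet calls. Usp18, which removes ISG15 from proteins and dampens interferon signalling, was at 125, 78.9 and 44.2 CPM, and Isg15 at 330.2, 148 and 164 CPM. Ifit3b was lower than in other cells, at 24.5 against 53.8 CPM. After thinning, Oasl2 was seen in 13.4% of neuroblasts, 3.00% of oligodendrocyte and 9.13% of endothelial reference cells, and Isg15 in 18.8%, 2.85% and 19.0%. Summed per cell, the list had a median of 13.2 UMIs per 10000 in neuroblasts with quartiles of 4.86 and 32.2 and a highest value of 274. The decile of cells with the highest values held 48.3% of the UMIs, and 6.74% of cells had none. That decile held 57.2% in astrocyte, 57.6% in oligodendrocyte and 38.5% in endothelial reference cells, and 41.6% in cycling precursors. Cells with none made up 12.4%, 7.13%, 0.98% and 1.91% of these classes. The medians were 9.01 in cycling precursors, 5.23 in astrocyte, 6.69 in oligodendrocyte and 34.5 in endothelial reference cells. Neuroblasts lay above both glial references and below the endothelial one. At least 3 genes of the list, a cut chosen after the values were seen, were found after thinning in 28.3% of neuroblasts (25.6 to 31.2; 28.4 without doublet calls), 20.6% of cycling precursors (15.3 to 26.7) and 44.9% of endothelial reference cells, and in 70.3% of neuroblasts without thinning. Of 18 interferon-gamma-induced GTPases and partners, 2 were higher than in other cells and 10 lower, with Gbp3 at 129 against 45.1 CPM and Cxcl10, a T cell chemoattractant, at 6.49 against 71.8 CPM.

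**Figure D4:**
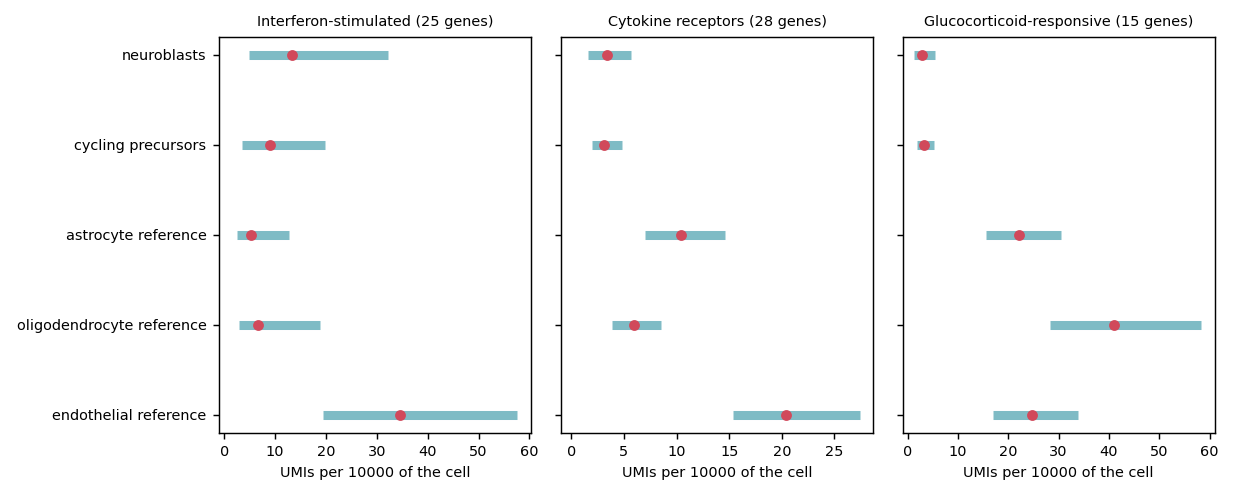
Median and quartiles per cell of the summed UMIs per 10000 of interferon-stimulated, cytokine receptor and glucocorticoid-responsive genes, by class. Neuroblasts have a median of 13.2 for the first list, and of 3.40 and 2.93 for the other lists, where the endothelial reference is at 20.4 and 24.8.

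Most cytokine receptor and complement genes were lower than in other cells, but not lower than in cycling precursors. Against cycling precursors, 5 of 23 cytokine receptor genes were at least 2-fold higher and 0 lower, with a median log2 ratio of 0.27. For complement, 6 of 16 genes were higher and 0 lower in that comparison (median 0.86). Over all genes 9.34% were higher there and 6.1% lower. Of 26 cytokine receptor genes, 0 were at least 2-fold higher than in other cells and 19 were lower, with a median log2 ratio of -2.37. The interferon receptor subunit gene Ifnar1 was close to the other cells, at 51.1 against 55.9 CPM, and Ifnar2 was at 43.3 against 76.8 CPM. Osmr, the oncostatin M receptor, was at 8.17 against 65.9 CPM (4.47 without the doublet calls) and Il1rap, the interleukin 1 coreceptor, at 34.1 against 103 CPM. In all, 7 of the 26 lay within 2-fold of other cells, among them Ifnar1, Ifnar2, the ciliary neurotrophic factor receptor gene Cntfr (63.6 against 93.4 CPM) and Tgfbr1 (31.0 against 24.9 CPM). Of 23 complement genes, 14 were lower and 2 higher, the latter being Sez6 (139 against 3.69 CPM) and Sez6l (15.3 against 5.51 CPM), neuronal members of a family of complement regulators. Clu, an inhibitor of complement lysis, was at 172 against 1569 CPM. Of 17 antigen presentation genes, 0 were higher and 7 lower, where 33.2% of all genes were lower, and B2m was at 305 against 404 CPM. Il1b had 3 UMIs, 73.8-fold below other cells (25.2 to 358), and Ccl6 and Cxcl3 had none, at least 27.0-fold and 18.6-fold lower against a floor of 3 UMIs over the class.

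Genes of stem cells, niche signals and steroid response stood low against other cells, where 15% of all genes were higher and 33.2% lower. Of 16 stem cell and astrocyte genes, 0 were higher than in other cells and 11 lower, with Gfap at 19.0 against 203 CPM, while Sox2 was at 352 against 209 CPM. The rule's limit on Slc1a2 and Aqp4 favoured members with low astrocyte genes. Of 25 Notch, Wnt and hedgehog genes, 4 were higher and 18 lower. Draxin, a repulsive guidance protein and Wnt antagonist, was at 87.0 against 1.83 CPM, and Gli1, a hedgehog target, at 3.97 against 44.5 CPM (2.59 without the doublet calls). Of 15 glucocorticoid-responsive genes, 15 were lower than in other cells, with a median of -2.43, and Sgk1, a kinase induced by the hormone, was at 129.7 against 699.8 CPM, and at 54.3 CPM without the doublet calls. Against cycling precursors the glucocorticoid list had 2 higher, 0 lower and a median of 0.38. In that comparison 0 of 15 stem cell and astrocyte genes were higher and 3 lower (median -0.23). For Notch, Wnt and hedgehog, 0 of 24 genes were higher and 3 lower (-0.11). Of all genes, 9.34% were higher than in cycling precursors and 6.1% lower. Per cell, the Notch, Wnt and hedgehog list had a median of 5.75 UMIs per 10000 in neuroblasts. It was at 2.17 in oligodendrocyte, 14.7 in endothelial and 23.3 in astrocyte reference cells. Igfbp5, a binding protein for insulin-like growth factors, was at 523 against 89.1 CPM in other cells, whereas 12 of 23 genes of the growth factor list were lower and 3 higher.

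A small set of members carried genes of the glutamatergic lineage. UMIs of at least 2 of Eomes, Neurod1, Neurod2, Neurod6, Neurog2 and Tbr1 were found in 30 of 1038 neuroblasts (2.89%, 1.96 to 4.10), and in 2 of 2635 oligodendrocyte reference cells (0.0759%). None of 1326 endothelial reference cells had them, and 0 of that number leaves room for 0.226%. Cycling precursors had them in 7 of 209 cells (3.35%, 1.36 to 6.78), so the set was not particular to the neuroblasts. After thinning the share was 1.06% in neuroblasts and 0.957% in cycling precursors. Without doublet calls the neuroblast share was 2.77%. All 30 were among the 94 members with 4 or 5 rule genes and none among the 944 with 6 to 8. The rule holds 3 genes of the GABAergic lineage, Dlx6os1, Sp9 and Dlx1, so cells without them could not reach 6. Sox11 and Igfbpl1 were found in 30 of the 30, Dcx in 28, Stmn2 in 25, Islr2 in 18, Dlx1 in 3 and Dlx6os1 and Sp9 in 1 each.

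Genes that the split did not use differed between the 30 and the other 1008 members, most of them chosen after their values were seen. Slc17a6, the vesicular glutamate transporter of young excitatory neurons, had 30 UMIs in the 30 cells and 2 in the 1008, and Emx1, a pallial homeodomain factor, had 22 and 0. Gad1 had 0 against 1772 UMIs, Sp8 0 against 1768, Adarb2 0 against 1776, Dlx5 0 against 1377 and Prokr2 0 against 424. Gad2 had 13 against 2707 UMIs. The set thus lacked the GABAergic genes that led the comparison with other cells. Lhx2 and Id2, factors of cortical and hippocampal progenitors among other cells, had 187 and 216 UMIs in the 30 cells against 192 and 275 in the rest. Rbfox3, which encodes the neuronal nuclear protein NeuN, was found in 22 of 30 cells and 35 of 1008. Calb2, which encodes calretinin, had 84 against 52 UMIs, from 6 and 27 cells. Of 36 guidance genes, 15 were at least 2-fold higher in the set and 6 lower, where 10.6% of 12409 genes were higher and 15% lower. Sema3c was at 254 against 15.4 CPM and its coreceptor Nrp1 at 165 against 13.4 CPM. Of 24 GABAergic lineage factors, 3 were higher and 12 lower. Scrublet called 4 of the 30 doublets, and their median depth was 9389 UMIs against 7382.

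**Figure D5:**
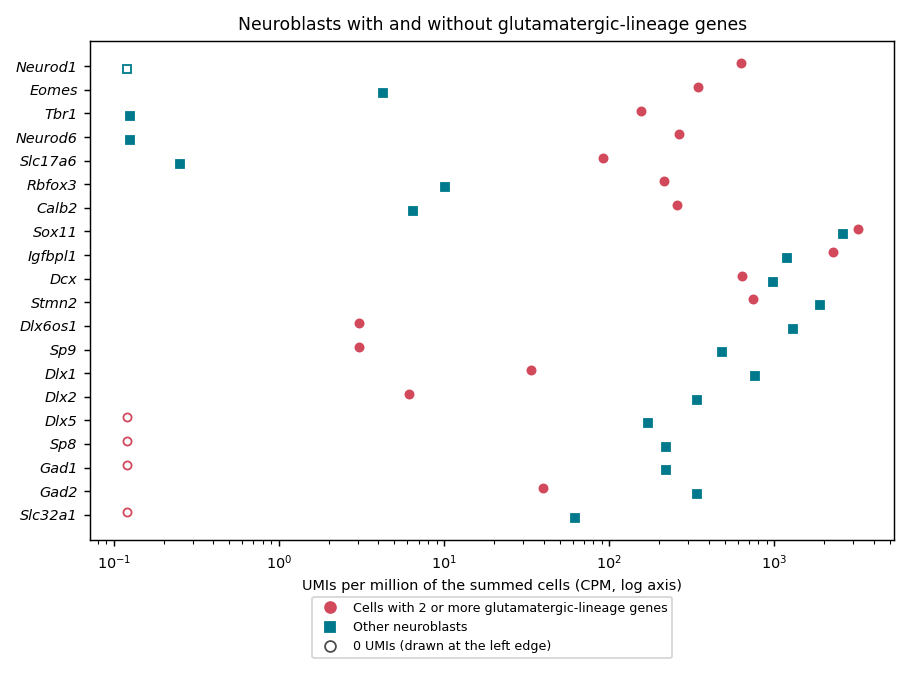
CPM (log axis) in the 30 neuroblasts with at least 2 glutamatergic-lineage genes and in the other 1008, by gene. Open symbols at the left edge mark 0 UMIs, as for Gad1 and Sp8 in the 30 cells.

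A further set was defined by genes of more mature neurons. After thinning, 46 members (4.43%, 3.26 to 5.87) held at least 2 of Gad1, Slc32a1, Syt1, Snap25, Rbfox3, Calb2 and Th, 4 of them also in the glutamatergic set and 1 called a doublet. The share rests on the depth, being 22.2% at 3000 UMIs and 55.6% without thinning, so the 46 are a range of cells and not a type. Of 13 glutamate signalling genes, 8 were at least 2-fold higher in these cells than in the other 992 and 1 lower, where 8.61% of 12408 genes were higher and 13.1% lower. Of 26 synapse genes that the split did not use, 13 were higher and 0 lower. The following genes were chosen after their values were seen. Penk, the enkephalin precursor of some olfactory bulb interneurons, had 46 UMIs in the 46 cells and 11 in the rest, and Gabra5, a GABA receptor subunit, had 19 and 3. Grm5, a metabotropic glutamate receptor, had 22 and 16 UMIs and Camk2a, a kinase of excitatory synapses, 17 and 17. Of 24 GABAergic lineage factors, 1 was higher and 1 lower, and of 36 cytoskeleton genes 0 were higher and 0 lower. The set thus differed in glutamate signalling and synapse genes, while 22 of the 24 GABAergic lineage factors stood within 2-fold. Other lists shifted too. Of 23 cytokine receptor genes 10 were lower and 0 higher, and of 25 interferon-stimulated genes 7 and 0. Of 24 Notch, Wnt and hedgehog genes 7 were lower and 1 higher. Scrublet called 2.17% of the 46 and 9.88% of the other 992 doublets, and the part of doublets in these shifts was not tested. Of 10 glutamatergic lineage factors, 5 were at least 2-fold higher and 0 lower, with a median log2 ratio of 1.13. Of 23 G1/S genes, 8 were lower and 0 higher.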

How the data were processed

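Single-cell RNA was measured in 1 CD45-negative and 1 CD45-positive library. The deposited values are UMI counts per gene and barcode, which per the file headers Cell Ranger 6.1.2 wrote for the authors, on mm10 per the submitters' processing notes. The sources used here do not say whether strand was used or doublets were removed upstream. Counts were summed per class and scaled to CPM, with exact Poisson intervals for levels, exact conditional binomial intervals for ratios and Clopper-Pearson intervals for shares (scipy 1.17.1 and pandas 2.3.3 in Python 3.11.15). Genes with at least 20 UMIs in both sums together were compared, and a 2-fold ratio was counted as higher or lower. The 8 rule genes, Top2a, Mki67, Slc1a2 and Aqp4 were left out of list counts. Reference cells were defined by marker genes of 1 cell type. Scrublet (scanpy 1.11.5) was run with an expected rate of 11.6%, and called cells were kept, with removal as an alternative. Scaling factors came from edgeR 4.0.16 and DESeq2 1.42.0, in R 4.3.3. The code was tested on simulated counts.

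Genes named were the 15 highest and 10 lowest ratios to other cells (at least 200 UMIs), the 8 highest and 8 lowest to cycling precursors, per list up to 4 by level and 2 by ratio in each direction, and the 12 rule genes. Others are said to be chosen after their values were seen, or were used by a split. The members and lists were chosen with earlier results of these data known. Alternatives changed the rule, filters, scaling, thinning and doublet treatment. Some results are not reported here.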

Additional observations from a re-analysis of the deposited data

How the results depend on the processing

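The member share of 8.06% was 8.64% with a mitochondrial limit of 10%, 7.49% with Slc1a2 and Aqp4 under 10 per 10000, and 7.42% without members holding oligodendrocyte or endothelial genes. Without a filter on low counts, 9550 genes were lower than in other cells (5742 with it), and 4323 were higher and 1975 lower than in cycling precursors (1212 and 792). With at least 100 UMIs these were 485 and 474. The cell cycle share of 20.8% was 85.4% without thinning and 61.9% at 3000 UMIs. The glutamatergic share of 2.89% was 1.06% after thinning to 1000 UMIs, and the maturation share of 4.43% was 55.6% without thinning and 22.2% at 3000 UMIs. The log2 ratio to other cells of Esco2 turned from -2.82 to 0.20 as a mean over cells, and that of Lhx6 from 2.83 to -0.25 without doublet calls and to -0.35 without other-lineage members. That of Hspa1b to cycling precursors turned from -1.73 to 0.31 with 5 rule genes. The cause was not tested. TMM moved the median log2 ratio of all genes from -0.23 to -0.11 against other cells, and median of ratios to -0.06. Against cycling precursors it went from 0.10 to 0.01 and 0.00. Over the alternatives, 18 list medians moved and 278 did not, and of the values of named genes 689 moved, 4 reversed and 3225 did neither. No paired analysis was possible because each subset has 1 library. Depth limited genes with few UMIs over all members, such as Aurkb, Ccnb1 and Ccna2 with 2 to 5.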

Other observations

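Genes of stress and cell survival included low members in neuroblasts. Bcl2, which restrains apoptosis, was at 21.9 CPM against 79.6 in other cells. The p53 target Cdkn1a was at 90.6 CPM against 488 in other cells, and at 44.8 CPM without the doublet calls, with 38.7% of its UMIs from 10 cells. Of 23 integrated stress and p53 genes, 6 were at least 2-fold higher than in other cells and 6 lower (26.1%). Over all genes 15% were higher and 33.2% lower, so the list as a whole was not low.

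Of 20 genes of oxidative stress and iron handling, 2 were higher than in other cells and 13 lower. Slc7a11, the cystine importer that feeds glutathione synthesis, was at 15.99 against 233 CPM (9.22 without the doublet calls), and the metallothionein gene Mt1 at 988 against 7271 CPM. The 2 ferritin chains differed in direction: Fth1, the heavy chain, was at 2526 against 10739.8 CPM (1549.9 without the doublet calls) and Ftl1, the light chain, at 1632 against 666 CPM. Ferritin genes have many near-identical pseudogenes, so reads may be shared. Of 22 glycolysis and hypoxia genes, 0 were higher and 7 lower, where 33.2% of all genes were lower, and the glucose transporter gene Slc2a1 was at 62.3 against 398 CPM, and at 24.8 CPM without the doublet calls.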
